A study of Homo sapiens with 12 samples.

Results

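The mRNAs of 10 enzymes of androgen glucuronidation and steroid metabolism were followed in C4-2, a human prostate cancer line that grows without testicular androgen, with ALKBH5 overexpression (oeALKBH5, the genotype and treatment in the labels) or with an empty vector (NC, no treatment). ALKBH5 takes the methyl mark N6-methyladenosine (m6A) off RNA. The enzymes were the glucuronosyltransferases UGT2B11, UGT2B15, UGT2B17 and UGT2B28, the supply enzyme UGDH, the reductases SRD5A1 and SRD5A3, and the dehydrogenases AKR1C3, HSD17B4 and HSD17B10. They were chosen as a named set, with earlier results of these data known. They were matched by Ensembl identifier to the authors' expression table, which held all 10 among its 20308 genes. The labels list 12 libraries, and the 6 used here are the input libraries, sequenced without m6A pull-down, 3 per group. No label says that replicates came from separate cultures. The p-values set the difference of the groups against the spread of libraries within groups, and that spread may be only technical. The vector, its promoter and whether a group is a single clone are not given in the sources used here.

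In the prostate, testosterone and its more potent product dihydrotestosterone are made by reductases and dehydrogenases and are cleared by coupling to glucuronic acid. UGT2B enzymes carry out that coupling in the endoplasmic reticulum, with UDP-glucuronic acid from UGDH as the donor. UGT2B15 and UGT2B17 are the main androgen-conjugating enzymes of prostate cells, and androgen is known to lower their mRNA in the LNCaP line from which C4-2 derives.

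Values are FPKM, a fragment number divided by the length of the transcript and by the size of the library, so levels of different genes can be compared per length. Library sums ranged from 511333 to 524905 FPKM, and the number of reads behind each value is unknown. From the commonest ratio among genes under 1 FPKM, depth relative to NC replicate 1 was estimated at 0.783 to 1.07 in oeALKBH5 libraries and 1.00 to 1.13 in NC libraries, which rested on 77 to 114 of 498 to 554 genes per library. ALKBH5, the targeted gene, had 80.3, 74.3 and 72.5 FPKM in oeALKBH5 libraries and 64.9, 61.1 and 58.2 FPKM in NC libraries, groups that did not overlap but that limma did not call different (adjusted p = 0.114). All 8 luminal prostate markers examined, among them KLK3, were at 52.3 FPKM or more in every library. Their summed level was 2176 to 2384 FPKM in oeALKBH5 libraries and 2132 to 2151 FPKM in NC libraries, without overlap. KRT8 was called higher in oeALKBH5 cells, at 223 ± 13.2 FPKM beside 137 ± 8.44 FPKM in NC cells (limma adjusted p = 0.00242). No other luminal marker was called, and the means of KLK3 and HOXB13 were slightly lower in oeALKBH5 cells. Markers of liver, where UGT2B genes are also expressed, were at most 2.53 FPKM. The summed level of 4 immune markers was 3.19 to 7.85 FPKM in oeALKBH5 libraries and 0.344 to 2.80 FPKM in NC libraries, without overlap. Singly they differed. CD3D and PTPRC (at most 0.456 FPKM) were higher in every oeALKBH5 library, and LYZ overlapped between the groups. CD3E had the lower mean in oeALKBH5 libraries (0.691 FPKM, beside 1.14 FPKM in NC libraries). The summed level of 5 fibroblast markers was 2.17 to 27.7 FPKM in oeALKBH5 libraries and 3.86 to 12.6 FPKM in NC libraries. Most of it was COL1A1, at 2.17 to 27.6 FPKM in oeALKBH5 libraries and 3.43 to 12.2 FPKM in NC libraries. COL1A2 and COL3A1 were at most 0.448 FPKM, and DCN and LUM were listed at 0 throughout. The summed level of 3 basal markers was 0 to 6.14 FPKM in oeALKBH5 libraries and 1.58 to 4.95 FPKM in NC libraries. The part of these markers in the results was not tested.

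The UGT2B genes are close copies on chromosome 4. In the RefSeq gene order, UGT2B17, UGT2B15 and UGT2B10 are consecutive protein-coding genes, and so are UGT2B7, UGT2B11, UGT2B28 and UGT2B4. Sequences of the 250 bases before the annotated start are given for UGT2B15, UGT2B11 and UGT2B10. UGT2B15 is the member with the highest UGT2B level, and UGT2B10 is a copy outside the set. The sequences show how far the copies resemble each other in these upstream windows. They are RefSeq sequences of GRCh38.p14, 5′ to 3′ on the minus strand for UGT2B15 (chr4:68670653-68670902) and UGT2B11 (chr4:69214749-69214998) and on the plus strand for UGT2B10 (chr4:68815744-68815993). Capitals mark matches, on either strand, to GTAAACA, the core bound by forkhead factors such as FOXA1, and to AGAACA, the letters of a single arm of an androgen response element.
UGT2B15: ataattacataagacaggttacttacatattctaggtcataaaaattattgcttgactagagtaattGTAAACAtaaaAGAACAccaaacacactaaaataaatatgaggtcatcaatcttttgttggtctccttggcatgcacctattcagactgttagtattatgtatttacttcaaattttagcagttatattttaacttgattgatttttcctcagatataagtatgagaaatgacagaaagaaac
UGT2B11: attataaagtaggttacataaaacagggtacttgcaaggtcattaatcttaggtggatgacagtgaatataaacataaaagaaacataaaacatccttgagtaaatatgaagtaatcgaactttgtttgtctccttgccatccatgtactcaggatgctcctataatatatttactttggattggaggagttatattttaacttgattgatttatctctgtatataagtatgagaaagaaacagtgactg
UGT2B10: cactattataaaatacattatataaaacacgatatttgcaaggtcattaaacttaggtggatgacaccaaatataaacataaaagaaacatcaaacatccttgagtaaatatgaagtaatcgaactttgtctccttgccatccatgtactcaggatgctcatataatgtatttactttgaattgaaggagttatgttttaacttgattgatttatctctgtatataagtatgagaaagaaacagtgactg

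In a global alignment, the UGT2B11 and UGT2B10 windows were 90.2% identical (229 of 254 aligned columns), and the UGT2B11 and UGT2B15 windows were 71.4% identical (187 of 262). The transcripts themselves were not compared, so these identities do not describe how reads are divided between the copies. The UGT2B15 window held GTAAACA starting 183 bases and AGAACA starting 172 bases before the start, without overlap. Of 35116 RefSeq windows of this length, 2.98% held the GTAAACA core and 12.4% held AGAACA. No match to either was found in the windows of the other 7 members that have an entry, 8 of 10 members in all. The UGT2B15, UGT2B11 and AKR1C3 windows were poor in G and C, at 28.4%, 31.2% and 32.0% (35.6% at the other AKR1C3 start listed), whereas those of SRD5A1, UGDH, HSD17B10, SRD5A3 and HSD17B4 held 70.8%, 66.0%, 63.2%, 59.6% and 52.8%. These matches and base compositions describe the windows and were not set against expression.

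The 10 enzymes covered a wide range of levels. In oeALKBH5 cells the order of mean level was HSD17B4, HSD17B10, UGDH, SRD5A3, UGT2B15, SRD5A1, UGT2B17, UGT2B11, UGT2B28 and AKR1C3. In NC cells UGT2B15 stood before SRD5A3 and the order was otherwise the same. Libraries of neighbours in the order overlapped between SRD5A3 and UGT2B15, UGT2B17 and UGT2B11, and UGT2B28 and AKR1C3 in oeALKBH5 cells. In NC cells they overlapped between UGT2B15 and SRD5A3, SRD5A3 and SRD5A1, UGT2B11 and UGT2B28, and UGT2B28 and AKR1C3. The most and the least abundant members lay above 96.3% and 9.52% of the tested genes by mean level over all libraries.

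**Figure D1:**
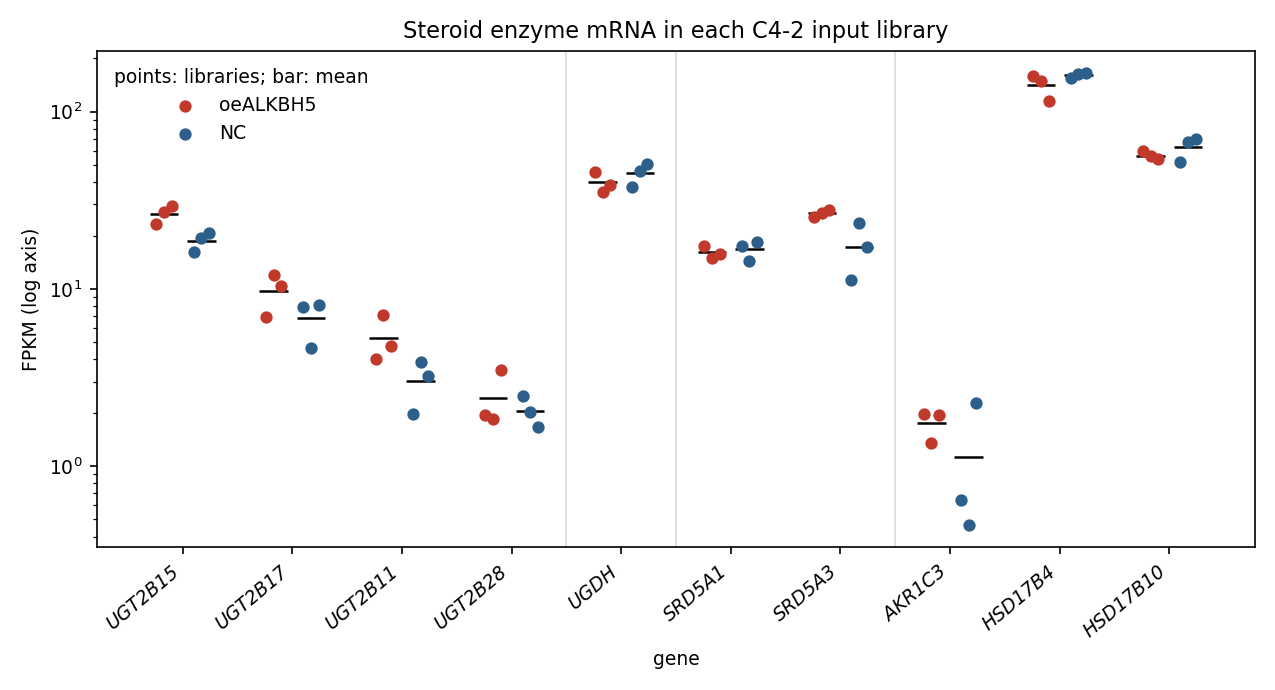
FPKM (log axis) of each enzyme in the 3 oeALKBH5 libraries (red, left) and the 3 NC libraries (blue, right); points are libraries and bars are group means. UGT2B15, UGT2B11 and SRD5A3 are the genes whose groups do not overlap, and the NC points of SRD5A3 and AKR1C3 are spread widely.

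None of the 10 enzymes was called different between oeALKBH5 and NC cells. Limma on log2(FPKM + 1), adjusted by Benjamini-Hochberg over the 12757 genes whose mean FPKM reached 0.5, found 0 members higher and 0 lower at an adjusted p under 0.05, where 5.45% of all tested genes were called, 3.02% higher and 2.43% lower in oeALKBH5 cells. A p above the threshold does not show equal levels, and the intervals below give the range of differences that the data allow. At an unadjusted p under 0.05 there were 2 members, UGT2B15 and SRD5A3, where 21.9% of all tested genes reached that level. All 10 members passed the filter on low values. The libraries of the groups did not overlap in 3 of 10 members, UGT2B15, UGT2B11 and SRD5A3, beside 28.1% of all tested genes, so the share was near the background. All 3 were higher in oeALKBH5 libraries, beside 15.1% of all tested genes, and 0 were lower, beside 13.0%. The median log2 fold change of the members was 0.30, beside 0.02 over all tested genes. The members were chosen with earlier results of these data known, so these shares and this median are not an independent comparison with the background. Reads may also be divided between the UGT2B copies among the members, so the 10 values are not all separate. In total RNA from a culture, fewer cells with a transcript and less transcript per cell cannot be told apart. Over all tested genes the number called was 695 with 6 libraries. It was 423, 356 and 282 when oeALKBH5 replicate 1, 2 or 3 was left out, and 379, 321 and 217 when NC replicate 1, 2 or 3 was left out.

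The 4 UGT2B members had positive log2 fold changes, none of which was called. UGT2B15, which conjugates dihydrotestosterone and its metabolites, had 23.1, 27.1 and 29.5 FPKM in oeALKBH5 libraries and 16.2, 19.2 and 20.5 FPKM in NC libraries. Every oeALKBH5 library was above every NC library. The means were 26.6 ± 3.25 FPKM in oeALKBH5 and 18.7 ± 2.23 FPKM in NC cells (SD, n = 3 each), a log2 fold change of 0.49 (SE 0.16, 95% interval 0.13 to 0.84, limma adjusted p = 0.113). UGT2B17, which conjugates testosterone as well as dihydrotestosterone, had 6.91, 11.96 and 10.4 FPKM in oeALKBH5 libraries and 7.92, 4.61 and 8.11 FPKM in NC libraries. Its groups overlapped, since oeALKBH5 replicate 1 lay below NC replicates 1 and 3 (log2 fold change 0.45, 95% interval -0.17 to 1.08, limma adjusted p = 0.376).

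UGT2B11, a less studied member of the family, had 4.02, 7.09 and 4.74 FPKM in oeALKBH5 libraries and 1.97, 3.89 and 3.23 FPKM in NC libraries. The groups did not overlap, but oeALKBH5 replicate 1 and NC replicate 2 were only narrowly apart, and the log2 fold change was 0.64 (SE 0.30, 95% interval -0.03 to 1.31, limma adjusted p = 0.246). UGT2B28 had 1.94, 1.85 and 3.498 FPKM in oeALKBH5 libraries and 2.49, 2.02 and 1.66 FPKM in NC libraries. Only oeALKBH5 replicate 3 was above all NC libraries (log2 fold change 0.14, 95% interval -0.53 to 0.82, limma adjusted p = 0.824), and the sign turned without it (log2 fold change -0.07). UGT2B10, the close copy of UGT2B11 outside the set, had 4.83, 8.74 and 5.42 FPKM in oeALKBH5 libraries and 1.95, 5.01 and 2.74 FPKM in NC libraries (limma adjusted p = 0.191). Both genes were highest in oeALKBH5 replicate 2 and lowest in NC replicate 1.

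How the authors' counting divided reads between UGT2B copies is not given in the sources used here, so values of single copies are uncertain and their sum was also examined, without a test. The 4 members summed to 36.0, 48.0 and 48.2 FPKM in oeALKBH5 libraries and 28.6, 29.8 and 33.5 FPKM in NC libraries. Every oeALKBH5 sum was above every NC sum, with means of 44.0 ± 7.01 FPKM in oeALKBH5 and 30.6 ± 2.59 FPKM in NC cells (SD, n = 3 each), a ratio of 1.44. Over all UGT2B genes in the table the sums were 41.2, 57.1 and 53.6 FPKM in oeALKBH5 libraries and 31.0, 35.2 and 36.3 FPKM in NC libraries. The share of each gene in the sum overlapped between the groups. UGT2B15 gave 60.7 ± 3.89% of the 4-gene sum in oeALKBH5 and 60.9 ± 3.998% in NC cells (SD, n = 3 each). Its own groups did not overlap, so the sum is not independent of that result. UGT2B17 gave 21.9 ± 2.85% in oeALKBH5 and 22.5 ± 6.29% in NC cells. The ratio of UGT2B15 to UGT2B17 was 3.34, 2.27 and 2.83 in oeALKBH5 libraries and 2.05, 4.17 and 2.53 in NC libraries, with overlapping groups.

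**Figure D2:**
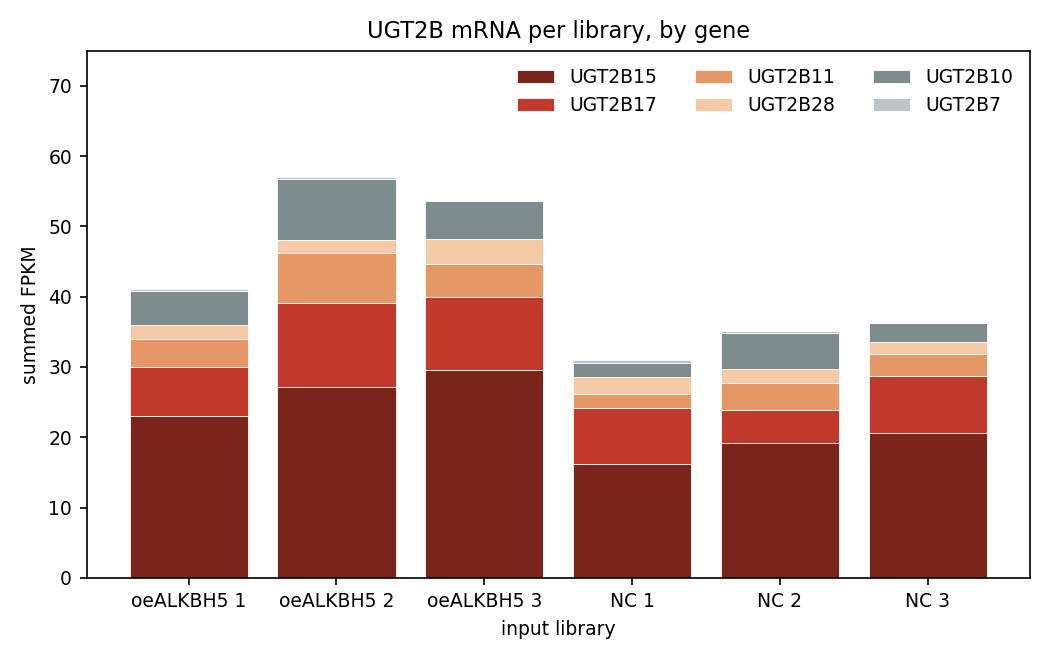
Summed FPKM of the UGT2B genes in each input library, oeALKBH5 on the left and NC on the right; stacked colours are genes. The totals are 41.2 to 57.1 FPKM in oeALKBH5 and 31.0 to 36.3 FPKM in NC libraries, and UGT2B15 is the largest share in each.

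UGDH, which oxidises UDP-glucose to the UDP-glucuronic acid that the UGT2B enzymes use, had a log2 fold change below 0. It had 45.7, 35.3 and 38.6 FPKM in oeALKBH5 libraries and 37.4, 46.3 and 50.9 FPKM in NC libraries. The groups overlapped and limma did not call it (log2 fold change -0.16, 95% interval -0.51 to 0.18, adjusted p = 0.570).

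The reductases differed from each other in how they varied. SRD5A1 reduces testosterone to dihydrotestosterone and had 17.5, 14.9 and 15.8 FPKM in oeALKBH5 libraries and 17.5, 14.4 and 18.3 FPKM in NC libraries. The groups overlapped (log2 fold change -0.05, 95% interval -0.42 to 0.32, limma adjusted p = 0.891). SRD5A3, named for its likeness to steroid reductases and known chiefly for reducing polyprenol to dolichol, the lipid carrier of N-glycosylation, had 25.5, 26.8 and 27.7 FPKM in oeALKBH5 libraries and 11.2, 23.4 and 17.25 FPKM in NC libraries.

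The oeALKBH5 values of SRD5A3 lay close together and above all NC values, which ranged widely: the coefficient of variation was 4.12% in oeALKBH5 and 35.3% in NC cells. Means were 26.7 ± 1.10 FPKM in oeALKBH5 and 17.3 ± 6.10 FPKM in NC cells (SD, n = 3 each), a log2 fold change of 0.66 (SE 0.23, 95% interval 0.12 to 1.19, limma adjusted p = 0.146). It was 0.39 without NC replicate 1, the lowest library, and 0.89 without NC replicate 2. Of all tested genes, 12.7% had a log2 fold change larger in size than that of SRD5A3. An exact two-sided permutation test over the 6 libraries gave p = 0.1 for UGT2B15, UGT2B11 and SRD5A3, the smallest that 3 against 3 can give.

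The dehydrogenases held the most and the least abundant member. AKR1C3 converts androstenedione to testosterone and is a known source of androgen in castration-resistant tumours. It had 1.98, 1.35 and 1.94 FPKM in oeALKBH5 libraries and 0.643, 0.466 and 2.26 FPKM in NC libraries. NC replicate 3 was the highest of all 6 libraries, so the groups overlapped (log2 fold change 0.46, 95% interval -0.38 to 1.31, limma adjusted p = 0.506). Its close copies AKR1C1 and AKR1C2 were chosen for mention after their values were seen. AKR1C1 had 1.202, 0.876 and 1.55 FPKM in oeALKBH5 libraries and was listed at 0, 0 and 0.0514 FPKM in NC libraries (limma adjusted p = 0.0866). AKR1C2 was listed at 0, 0 and 2.32 FPKM in oeALKBH5 libraries and at 0.265, 1.21 and 1.29 FPKM in NC libraries. Reads shared by these copies leave each single value uncertain.

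HSD17B4, the peroxisomal enzyme of fatty acid breakdown that also oxidises estradiol, had 158, 148 and 115 FPKM in oeALKBH5 libraries and 154, 164 and 165 FPKM in NC libraries. Of the oeALKBH5 libraries, replicate 3 was the low one, and the groups overlapped (log2 fold change -0.21, 95% interval -0.48 to 0.06, limma adjusted p = 0.349). HSD17B10, a mitochondrial enzyme of isoleucine and steroid oxidation that is also a subunit of mitochondrial RNase P, had 59.9, 56.0 and 53.7 FPKM in oeALKBH5 libraries and 51.7, 67.3 and 70.2 FPKM in NC libraries. NC replicate 1 was below all oeALKBH5 libraries and the other NC libraries were above them (log2 fold change -0.14, 95% interval -0.44 to 0.16, limma adjusted p = 0.566). The upper bounds of the intervals were 0.06 for HSD17B4, 0.16 for HSD17B10, 0.18 for UGDH and 0.32 for SRD5A1, whereas those of UGT2B11, AKR1C3, SRD5A3 and UGT2B17 lay above 1. Leaving out each library in turn moved the log2 fold change of UGT2B17 between 0.22 and 0.66, that of AKR1C3 between 0.24 and 0.82, and that of HSD17B4 between -0.30 and -0.07. It moved that of HSD17B10 between -0.28 and -0.06, and that of UGDH between -0.28 and -0.07.

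**Figure D3:**
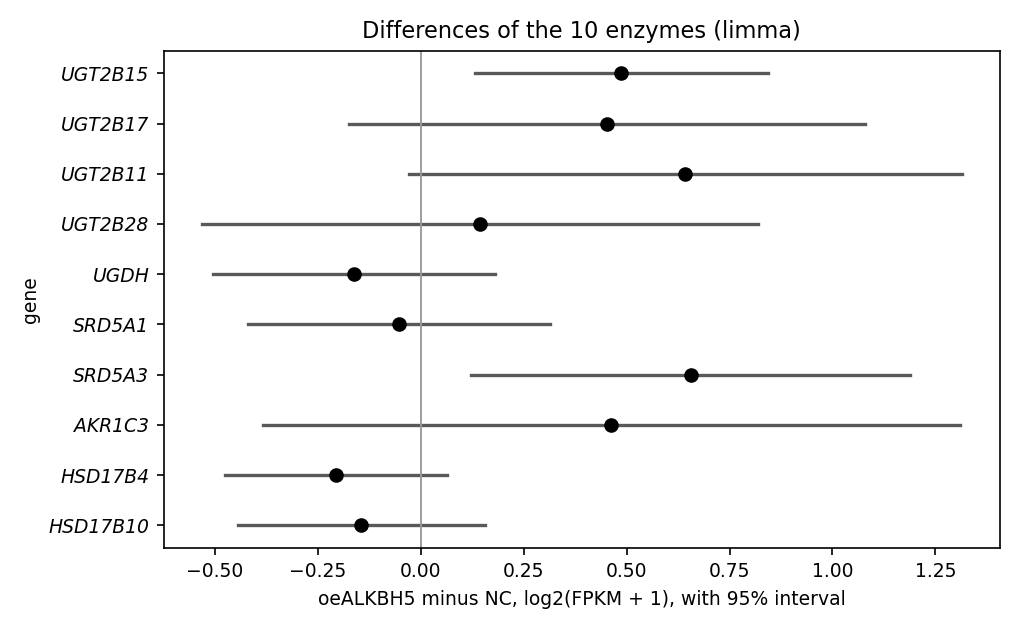
Difference oeALKBH5 minus NC of each enzyme on the log2(FPKM + 1) scale; dots are limma estimates and lines are 95% intervals, not adjusted for the number of genes. The intervals of UGT2B15 (0.13 to 0.84) and SRD5A3 (0.12 to 1.19) lie above 0, and those of the other 8 members include 0.

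Around these enzymes, 10 lists of related genes were examined, with 95 tested genes in all. Of these, 5 rose, 5 fell and 85 did not pass the limma test, which is 10.5% called beside 5.45% of all tested genes. The groups did not overlap in 36 of the 95 (37.9%), beside 28.1% of all tested genes. These lists were chosen with earlier results of these data known, so neither share is an independent comparison with the background. The same holds for the counts of single lists given below. Of 15 genes that make steroids from cholesterol, 7 were listed at 0 in all libraries, among them STAR, which brings cholesterol into mitochondria, CYP17A1, CYP19A1 and HSD3B2, and none of the 6 tested was called. Those 6 included CYB5A, a cofactor of CYP17A1, at 158 ± 18.5 FPKM in oeALKBH5 and 147 ± 11.2 FPKM in NC cells, and POR, which passes electrons to cytochromes P450 of the endoplasmic reticulum, at 15.6 ± 1.59 FPKM in oeALKBH5 and 21.4 ± 2.32 FPKM in NC cells (SD, n = 3 each; limma adjusted p = 0.618 and 0.149). Of 5 tested UGT genes outside the set none was called, and UGT8, which makes galactosylceramide, was at 7.01 ± 1.18 FPKM in oeALKBH5 and 12.04 ± 0.797 FPKM in NC cells (limma adjusted p = 0.0736).

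Among other dehydrogenases of the HSD17B family, 1 of 7 tested rose and none fell, beside 5.45% called over all tested genes. HSD17B11, which oxidises androstanediol and sits on lipid droplets, had 13.7, 17.6 and 17.01 FPKM in oeALKBH5 libraries and 6.31, 8.36 and 7.04 FPKM in NC libraries (log2 fold change 1.06, SE 0.19, limma adjusted p = 0.0171). In the list of sulfation and hydroxylation, 1 of 8 tested genes rose and none fell. STS, the sulfatase that frees steroids from their sulfates, had 4.21, 5.68 and 5.23 FPKM in oeALKBH5 libraries and 1.38, 1.63 and 1.48 FPKM in NC libraries (log2 fold change 1.27, SE 0.25, limma adjusted p = 0.0240). All oeALKBH5 values of both genes were above all NC values. The call of HSD17B11 ended when NC replicate 1 or 3 or oeALKBH5 replicate 2 or 3 was left out, with a highest adjusted p of 0.0712 (NC replicate 3 left out). The call of STS ended when any library but oeALKBH5 replicate 1 was left out, with a highest adjusted p of 0.0857 (NC replicate 3 left out). With the replicate number added to the fit as a block, STS was no longer called (limma adjusted p = 0.0686) and HSD17B11 still was (0.0415).

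Of 9 tested genes among other reductases and dehydrogenases of steroids, 1 fell and none rose, beside 5.45% called over all tested genes. RDH11, a retinal reductase of prostate epithelium, was at 36.2 ± 0.891 FPKM in oeALKBH5 and 52.1 ± 4.51 FPKM in NC cells (SD, n = 3 each; limma adjusted p = 0.0354). HSD11B2, which inactivates cortisol and was chosen after its values were seen, had 17.5, 9.66 and 19.6 FPKM in oeALKBH5 libraries and 5.77, 6.16 and 7.77 FPKM in NC libraries, and was not called (limma adjusted p = 0.0541). Of 12 tested genes of UDP-sugar supply and glucuronide handling, 1 rose and none fell. It was the hexokinase HK2, at 38.2 ± 1.33 FPKM in oeALKBH5 and 26.9 ± 1.53 FPKM in NC cells (limma adjusted p = 0.0466). Both calls ended whichever library was left out, with a highest adjusted p of 0.112 for RDH11 (NC replicate 1 left out) and 0.135 for HK2 (NC replicate 3 left out). They also ended without the intensity trend (limma adjusted p = 0.0944 for RDH11 and 0.0902 for HK2). With the replicate number as a block, they ended as well (limma adjusted p = 0.0925 for RDH11 and 0.114 for HK2).

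Lists chosen for the other roles of SRD5A3, HSD17B4 and HSD17B10 gave 2 calls of 10 tested genes, 2 of 15 and 0 of 11, beside 5.45% called over all tested genes. They too were chosen with earlier results known, so these counts are not an independent comparison with the background. Of 10 tested genes of dolichol synthesis and use, 2 fell: DPM3, which anchors dolichol-phosphate mannose synthase, was at 28.1 ± 4.82 FPKM in oeALKBH5 and 50.2 ± 10.1 FPKM in NC cells, and ALG14, a subunit of a transferase of N-glycan assembly, was at 0.587 ± 0.0321 FPKM in oeALKBH5 and 3.86 ± 1.87 FPKM in NC cells (SD, n = 3 each; limma adjusted p = 0.0354 and 0.0323). Of 15 peroxisomal genes, 1 rose and 1 fell. ACOX3, an oxidase of branched-chain fatty acids, was at 15.5 ± 1.96 FPKM in oeALKBH5 and 7.03 ± 2.37 FPKM in NC cells, and ACOX2, an oxidase of branched-chain acids and bile acid precursors, was at 3.80 ± 1.02 FPKM in oeALKBH5 and 10.9 ± 2.15 FPKM in NC cells (limma adjusted p = 0.0452 and 0.0212). Of 11 genes of mitochondrial tRNA processing and isoleucine breakdown none was called, ECHS1 and ACAT1 being the most abundant (limma adjusted p = 0.0877 and 0.271).

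The call of DPM3 ended when NC replicate 2 or 3 or oeALKBH5 replicate 2 or 3 was left out (highest adjusted p 0.112, NC replicate 3 left out), and that of ALG14 whichever library was left out (highest 0.121, NC replicate 3 left out). The call of ACOX2 ended when NC replicate 1 or 3 or oeALKBH5 replicate 1 or 2 was left out (highest 0.101, NC replicate 3 left out), and that of ACOX3 for any library but NC replicate 2 (highest 0.125, oeALKBH5 replicate 2 left out). With no filter on low values none of these 4 genes was called, with limma adjusted p of 0.0908 for DPM3, 0.0582 for ALG14, 0.0621 for ACOX2 and 0.103 for ACOX3, and DPM3 and ACOX3 were not called without the trend either (0.0970 and 0.0845). With the replicate number as a block, the calls of DPM3, ALG14 and ACOX3 ended (limma adjusted p = 0.0751, 0.0714 and 0.0746). That of ACOX2 stayed (0.0346).

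A list of androgen-regulated prostate genes also held the transcription factors FOXA1 and HOXB13. Of its 12 tested genes, 1 rose and 1 fell, beside 5.45% called over all tested genes. NDRG1, which also responds to hypoxia, was at 277 ± 28.6 FPKM in oeALKBH5 and 62.6 ± 8.01 FPKM in NC cells (SD, n = 3 each; limma adjusted p = 3.5e-05). SLC45A3, a prostate transporter, was at 17.9 ± 3.23 FPKM in oeALKBH5 and 31.1 ± 3.41 FPKM in NC cells (limma adjusted p = 0.0360). The call of SLC45A3 ended whichever library was left out (highest adjusted p 0.133, NC replicate 3 left out), with no filter (0.0775) and without the trend (0.0810). It also ended with the replicate number as a block (limma adjusted p = 0.0850), where NDRG1 stayed called (0.00101). Among the 10 called genes of these lists, only NDRG1 stayed called whichever library was left out.

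**Figure D4:**
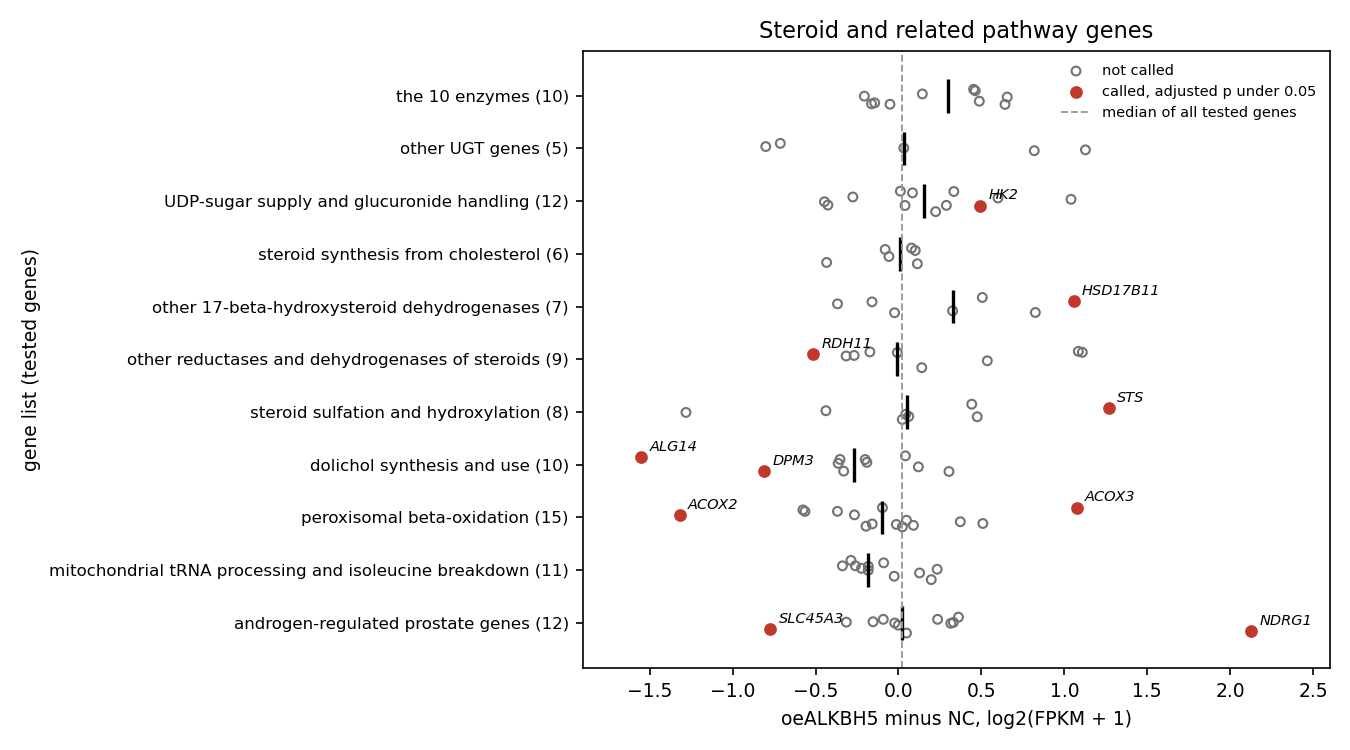
Difference oeALKBH5 minus NC on the log2(FPKM + 1) scale of the tested genes of each list (number in brackets); red points are called by limma at an adjusted p under 0.05, open points are not, black bars are list medians and the dashed line is the median of all tested genes. No point in the row of the 10 enzymes is called, and called genes lie on both sides of 0.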

How the data were processed

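The input libraries were made from rRNA-depleted RNA with a kit that keeps strand and read from both ends over 150 bases, per the labels. Tools named in the submitters' processing notes, without role, are HISAT2 2.0.4, Cufflinks, Cuffdiff and cutadapt 1.9.3, with build hg19. The authors deposited 1 table of gene values, taken as FPKM from those tools and the values, since the table names no unit. FPKM holds no counts, so depth is unknown and no count test was run. The 6 peak lists were not analysed here, since no hg19 annotation was used.

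Every gene whose mean reached 0.5 FPKM was fitted as log2(FPKM + 1) with limma 3.58.1 (R 4.3.3, intensity trend), oeALKBH5 minus NC, without a replicate block, and Benjamini-Hochberg adjustment over 12757 genes. Such a fold change understates the change of low genes. The fit was run on simulated data with independent errors. Planted changes there were larger than that of any member, so the run does not bear on changes of the members' size. The members and lists were chosen with earlier results of these data known. Named genes were all 10 members and, per list, up to 4 called genes or, with none called, the 2 most abundant; others are marked. A rule naming genes with a pattern like a called member was not run, since no member was called. Of the list genes, 4 were not matched, and some are not reported here. Sequences are RefSeq's. Python 3.11.15 was used. Alternatives were the pseudocount, filter, trend, scaling, failed estimates (above 0 and under 1e-06) as missing, a replicate block and leaving out each library.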

Additional observations from a re-analysis of the deposited data

How the results depend on the processing

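No member was called in any of 149 fits over 15 alternatives, with adjusted p of 0.102 to 0.269 for UGT2B15 and 0.0717 to 0.289 for SRD5A3. The sign turned in 3 of them: UGT2B28 was -0.028 under quantile normalization and -0.068 without oeALKBH5 replicate 3 (-0.068 to 0.26 over the fits that left out 1 library), and SRD5A1 was 0.014 without NC replicate 3 (-0.15 to 0.014). With a filter at 2 FPKM, AKR1C3 was not tested. Over all genes, the 385 higher and 310 lower calls became 198 and 72 without the trend and 203 and 141 with the replicate number as a block, and the lower calls became 163 with no filter; leaving out 1 library gave 145 to 219 higher and 72 to 204 lower. In the other lists, of the 5 higher and 5 lower calls, 2 and 1 were left with the block, the lower ones numbered 1 with no filter and 2 without the trend, and leaving out 1 library gave 1 to 3 higher and 0 to 2 lower. The smaller number of libraries bears on the last; the cause of the other changes was not tested. No pairing by replicate number was seen: deviations of same-numbered libraries correlated at -0.02, -0.02 and 0.03, and not every library was most like its own number. Such correlations cannot show whether same-numbered libraries were prepared together. The summed UGT2B difference kept its sign in each alternative run (11.4 to 17.5 FPKM for the 4 members). The depth behind low values such as those of AKR1C3 is unknown.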
